A study of Arabis alpina with 9 samples.

Results

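The apex of the eop089 mutant of Arabis alpina was compared between 5 and 3 weeks of age, using every gene of the deposited count table. Arabis alpina is a perennial of the same plant family as Arabidopsis, and the series title places the mutant in work on AaTFL1 and flowering. All plants carried the eop089 mutation in the Pajares accession and grew in long days. The comparison used 6 of the 9 libraries: 3 from shoot apices dissected at 3 weeks and 3 from apices dissected at 5 weeks. The other 3 libraries, from the fifth and the sixth leaf of the mutant at 5 weeks, entered the shared estimate of spread and served as a leaf reference. Control plants were not analysed here, so every difference below is one of age within the mutant, and age cannot be told apart from anything else that differed between the 2 harvests. The labels do not say whether replicates came from separate plants or cultures, so the spread that p-values measure here is that between libraries and may be technical.

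The shoot apex holds the stem cells that produce leaves or flowers, with the young leaf primordia around them. TFL1 is a repressor that keeps the apex of Arabidopsis vegetative, and TEM1 represses FT, the mobile flowering signal made in leaves. A growing apex draws on sugar from older leaves, and in Arabidopsis a set of dark-induced genes, ASN1 and DIN10 among them, marks tissue that is short of sugar.

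The apex libraries held 11859813 to 13242064 counts in genes, and 22865 to 23176 gene entries had a count. Libraries of 1 age correlated at 0.985 to 0.993 and libraries of different age at 0.941 to 0.962 in log2 level, and the first principal component, with 76.7% of the variance, separated the ages. The median SD of log2 level among replicates was 0.0847 at 3 weeks and 0.119 at 5 weeks. Of the markers for leaf, vascular and surface cells, few carried a name in the deposited tables. The epidermis and cuticle markers CER1 and PDF1 summed to 1225 to 1493 CPM (counts scaled to library size) at 3 weeks. At 5 weeks the sum was 667 to 869 CPM, against 30.2 to 60.9 CPM in leaf. Most of the apex sum was PDF1, and CER1 at the 5-week apex (19.3 to 32.4 CPM) was near its leaf level (21.8 to 27.7 CPM). The leaf mesophyll markers LHCB2.1, CA1 and CA2 summed to 208 to 308 CPM at 3 weeks, 137 to 424 CPM at 5 weeks and at least 17070 CPM in leaf. The phloem marker SUC2 stood at 23.56 to 29.35 CPM at 3 weeks and 8.67 to 15.5 CPM at 5 weeks. No marker of the shoot meristem carried a name, so the label of the tissue was checked only by the low leaf markers and the high level of PDF1.

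Of 20633 gene entries tested, 8265 (40.1%) differed between the ages, 3933 (19.1%) higher at 5 weeks and 4332 (21.0%) lower, at an adjusted p under 0.05 (quasi-likelihood test of edgeR, Benjamini-Hochberg). All adjusted p-values below come from that test. The large changes ran mostly downward: 584 entries rose at least 2-fold (2.83%) and 921 fell at least 2-fold (4.46%), while 52 rose and 267 fell at least 4-fold, and 10 rose and 98 fell at least 8-fold. Many of these large changes lay at low average levels. With only entries of average log2 CPM of at least 2 tested, 829 changed at least 2-fold, against 1505. The 3 libraries of 5 weeks lay wholly above those of 3 weeks in 25.9% of entries and wholly below in 26.1%. The median log2 fold change of all entries was 0.01. Higher entries were 47.6% of those called. That split depended on the scaling. It was 40.1% with the relative log expression (RLE) scaling of edgeR (median of all entries -0.03). With total counts alone it was 66.2%, and the median of all entries moved to 0.12.

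**Figure D1:**
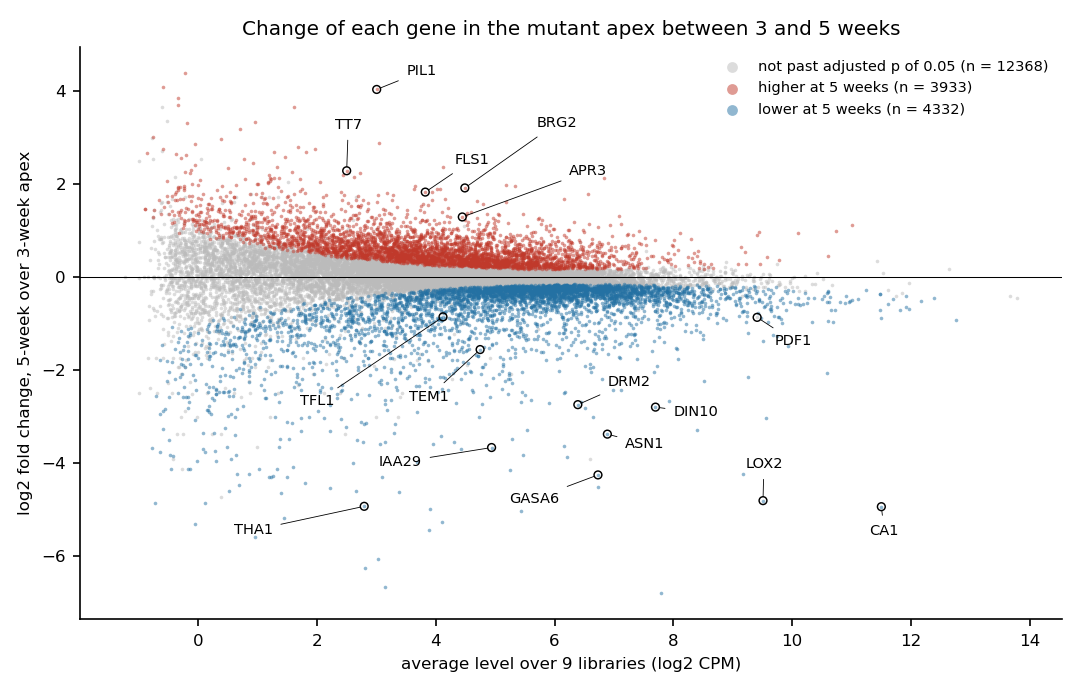
Each point is 1 of the 20633 gene entries, placed by its average level over the 9 libraries (log2 CPM, horizontal) and its log2 fold change from 3 to 5 weeks in the mutant apex (vertical). Red and blue mark the 3933 higher and 4332 lower entries, and circles mark genes named in the text. Falls reach below -6 while only PIL1 among the circled genes rises to 4.

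Gene names came only from the authors' deposited tables of genes that differed between the mutant and its control, so named genes are a chosen subset. Of 975 named genes tested, 157 rose (16.1%) and 377 fell (38.7%), with a median log2 fold change of -0.33. Of 238 tested IDs that the authors listed as higher in the mutant at 3 weeks, a list made from these same 3-week libraries, 7 rose and 186 fell by 5 weeks, and of 75 listed as lower, 42 rose and 6 fell. The 709 named genes listed only for the leaf were not chosen on apex libraries, and of these 123 rose (17.3%) and 206 fell (29.1%), with a median of -0.13. The share differed with the direction of the leaf listing. Of 342 tested IDs listed only for the leaf as higher, named or not, 20.5% rose and 36.3% fell. Of 575 listed as lower, 16.4% rose and 20.9% fell. Counts for most groups of genes are given beside the number or the names of members that the authors listed for the 3-week apex. A listing for that apex is not independent of the fall or rise described here. The same holds for a listing for the 5-week apex, which is given below only for some genes.

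Among flowering regulators, both measured repressors fell, and the promoters FT and SPL4 could not be set against them. FT had no count in the apex, so its test could show no change. SPL4 had only 18 counts summed over the 3-week libraries and 31 over the 5-week libraries, against a mean of 8.01 CPM in leaf. TFL1 stood at 31.4, 32.8 and 29.1 CPM in the 3 libraries of 3 weeks and at 14.4, 19.6 and 17.5 CPM in those of 5 weeks. The groups did not overlap, and the fall was 0.86 on the log2 scale (SE 0.11, adjusted p = 2.17e-05). TFL1 RNA was thus measured in every apex library of the mutant. TEM1 stood at 36.4, 35.6 and 32.9 CPM at 3 weeks and at 13.2, 9.94 and 12.5 CPM at 5 weeks, a fall by 1.56 (SE 0.10, adjusted p = 1.74e-08). All 5-week apices were below all 3-week apices and below the leaf mean of 34.5 CPM. FT had 0 counts in all 6 apex libraries, which allows up to 0.193 to 0.204 CPM per library at a limit of 3 counts, a limit that covers counting error only, and averaged 3.74 CPM in leaf. SPL4, a target of the age pathway that promotes flowering, had 0.326, 0.545 and 0.333 CPM at 3 weeks and 0.580, 0.867 and 0.595 CPM at 5 weeks (log2 fold change 0.75, SE 0.40, adjusted p = 0.14). Both TFL1 and TEM1 were listed by the authors as higher in the mutant at the 3-week apex.

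Few genes of the meristem or the flower carried names. GRF4, a growth-regulating factor that promotes cell proliferation in leaves, rose by 0.60 (SE 0.08, adjusted p = 4.01e-05), from 27.7 to 34 CPM at 3 weeks to 45.9 to 50.1 CPM at 5 weeks. The D-type cyclin CYCD1;1, which acts at entry into the cell cycle, rose by 0.84 (SE 0.12, adjusted p = 4.69e-05), from 43.4 to 46.1 CPM at 3 weeks to 74.9 to 85.6 CPM at 5 weeks. The mitotic cyclin CYCB1;3 went the other way, from 52.5 to 57.3 CPM at 3 weeks to 35.8 to 49.2 CPM at 5 weeks (log2 fold change -0.41, SE 0.11, adjusted p = 0.0075). HEC1, a bHLH factor of gynoecium and meristem, fell from 2.04 to 3.26 CPM at 3 weeks to 0.0667 to 1.1 CPM at 5 weeks (log2 fold change -2.14, SE 0.45, adjusted p = 0.0015). For these 4 genes the groups did not overlap, and without the first 5-week library the log2 fold change of HEC1 was -2.96. Of the 3 measured genes of meristem and organ boundary GRF4 rose and 1 not described here fell, with ages that overlapped. That stands beside 16.1% higher and 38.7% lower among all named genes tested. HEC1 was counted with floral genes instead, and was listed as higher in the mutant at the 3-week apex.

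Most genes linked to dormant buds and to sugar shortage fell, and most had been listed for the 3-week apex. Of 4 genes tied to bud dormancy 3 fell (75%), with a list median of -1.74, against 21.0% of all entries and 38.7% of named genes tested. All 4 had been listed by the authors as higher in the mutant at the 3-week apex. Of the 238 tested IDs so listed 186 fell, so the share of this list was near that of its listing. DRM2, a dormancy-associated gene that is high in resting buds, stood at 183, 219 and 185 CPM at 3 weeks and at 44.7, 18.1 and 24.8 CPM at 5 weeks. All 5-week libraries lay far below all 3-week libraries, by 2.74 on the log2 scale (SE 0.25, adjusted p = 7.85e-07), and near the leaf mean of 22.1 CPM. Its relative DYL1 fell by 0.91 (SE 0.10, adjusted p = 4.09e-06), from 281 to 315 CPM at 3 weeks to 142 to 167 CPM at 5 weeks. HB53, a homeobox gene that acts under BRC1 in Arabidopsis axillary buds, fell from 1.43 to 1.53 CPM at 3 weeks to 0.0661 to 0.467 CPM at 5 weeks (log2 fold change -2.58, SE 0.48, adjusted p = 5.92e-04), or by 3.42 without the second 5-week library. BRC1 itself, the branching repressor of axillary buds, had 2.74, 5.11 and 2.33 CPM at 3 weeks and 2.45, 3.14 and 3.04 CPM at 5 weeks, and did not pass (log2 fold change -0.24, SE 0.35, adjusted p = 0.62).

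All 7 dark-induced and amino acid turnover genes fell (median -1.59), against 21.0% of all entries and 38.7% of named genes tested. Of the 7, 6 were on the authors' list of genes higher in the mutant at the 3-week apex, of which 186 of 238 fell. ASN1, which makes asparagine when carbon is short, stood at 242, 280 and 232 CPM at 3 weeks and at 28.9, 18.1 and 25.7 CPM at 5 weeks. No library overlapped, and the fall was 3.37 (SE 0.33, adjusted p = 1.44e-06). SEN1, a dark- and senescence-induced gene, fell by 3.01 (SE 0.21, adjusted p = 4.82e-08), from 46.8 to 64.6 CPM at 3 weeks to 4.13 to 10.1 CPM at 5 weeks. DIN10, a raffinose synthase family member, stood at 384, 390 and 310 CPM against 58.7, 36.0 and 61.5 CPM, a fall by 2.79 (SE 0.15, adjusted p = 3.26e-09). ERD5, the proline oxidase of mitochondria, fell by 1.59, MCCA, a subunit of the leucine-degrading methylcrotonyl-CoA carboxylase, by 1.33, and HSPRO2 by 1.25 on the same scale. ATL8, a RING ubiquitin ligase and the member not listed for the 3-week apex, fell by 0.61 (adjusted p = 0.0149). Its call was lost without the third 5-week library (log2 fold change -0.45, adjusted p = 0.0747), and 6 of the 7 were lower when the first library of each age was left out.

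Sugar and starch genes followed with 7 of 10 lower (70%) and 1 higher (10%), against 38.7% and 16.1% of all named genes tested. Their median was -1.32. Of the 10, 4 were listed as higher in the mutant at the 3-week apex and 2 as lower. GPT2, the 1 that rose, was among those listed as lower. BMY3, a beta-amylase, stood at 236, 246 and 212 CPM at 3 weeks and at 42.2, 50.2 and 58.8 CPM at 5 weeks (log2 fold change -2.2, SE 0.10, adjusted p = 8.09e-10). The spread within each age was small beside the gap. TPS9 and TPS11, of the trehalose-phosphate synthase family, fell by 1.48 (SE 0.09) and 1.32 (SE 0.08), TPS9 from 204 to 206 CPM at 3 weeks to 62.1 to 82.9 CPM at 5 weeks. The sucrose carriers SUC1 and SUC2 fell by 1.32 (SE 0.16) and 1.27 (SE 0.16), and the sugar exporter SWEET1 by 1.17 (SE 0.29). None of them was listed for the 3-week apex, but SUC2 was listed as higher in the mutant at the 5-week apex. SUC2 is also the marker of phloem companion cells, and in bulk samples fewer cells of a type and less RNA per cell cannot be told apart. GPT2, the glucose-phosphate carrier of plastids that sugar induces in Arabidopsis, went the other way: 2.61, 2.45 and 3.13 CPM at 3 weeks and 6.70, 6.94 and 6.28 CPM at 5 weeks (log2 fold change 1.28, SE 0.16, adjusted p = 1.97e-05), with no overlap. GBSS1, the starch synthase that makes amylose, had 27.4 to 31.8 CPM at 3 weeks and spread from 18.3 to 59.6 CPM at 5 weeks (adjusted p = 0.18). It was higher at 5 weeks without the first 5-week library, its lowest (log2 fold change 0.80, adjusted p = 2.43e-05).

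Of 6 nitrogen and phosphate genes 3 fell (50%) and 1 rose (16.7%), beside 38.7% lower and 16.1% higher among all named genes tested. BT1 and BT2, BTB-domain regulators tied to nitrate and sugar, fell by 3.63 (SE 0.27, adjusted p = 7.86e-08) and 1.07 (SE 0.12, adjusted p = 6.66e-06), and both were listed as higher at the 3-week apex. BT1 stood at 84.6, 45.5 and 51.1 CPM against 3.61, 4.74 and 6.28 CPM. NIA1, a nitrate reductase, stood at 83.3, 33.5 and 40.4 CPM against 14.1, 16.6 and 17.2 CPM (log2 fold change -1.72, SE 0.25, adjusted p = 5.93e-05). In both genes the first 3-week library was the highest, and neither overlapped between ages. IPS1, a non-coding RNA of the phosphate starvation response, rose from 99.8 to 120 CPM at 3 weeks to 192 to 298 CPM at 5 weeks (log2 fold change 1.11, SE 0.18, adjusted p = 1.61e-04).

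**Figure D2:**
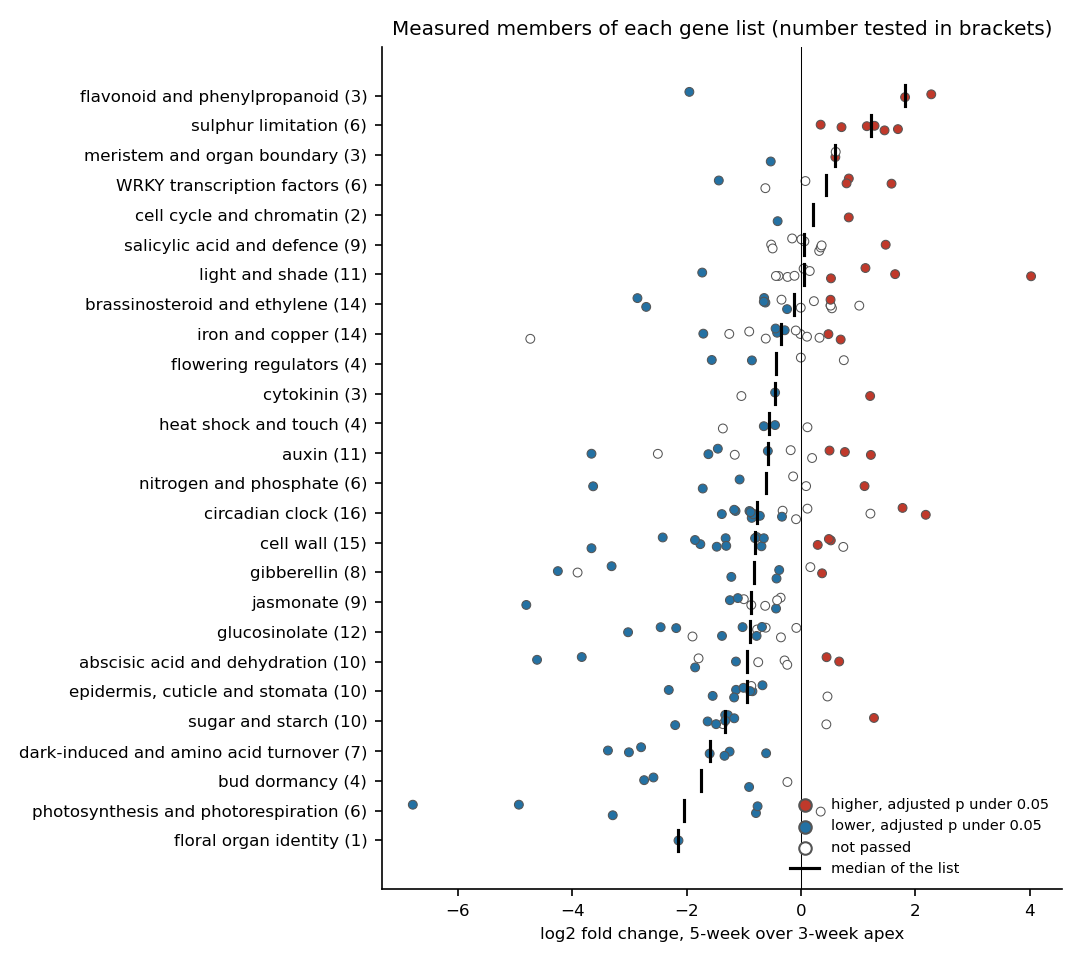
Each circle is a measured member of 1 of the 26 gene lists, placed by its log2 fold change from 3 to 5 weeks; red and blue circles passed the test, open circles did not, and black bars are list medians. Medians run from -2.14 for floral organ identity (1 gene tested) to 1.82 for flavonoid and phenylpropanoid genes (3 tested), and most lists have medians below 0.

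**Figure D3:**
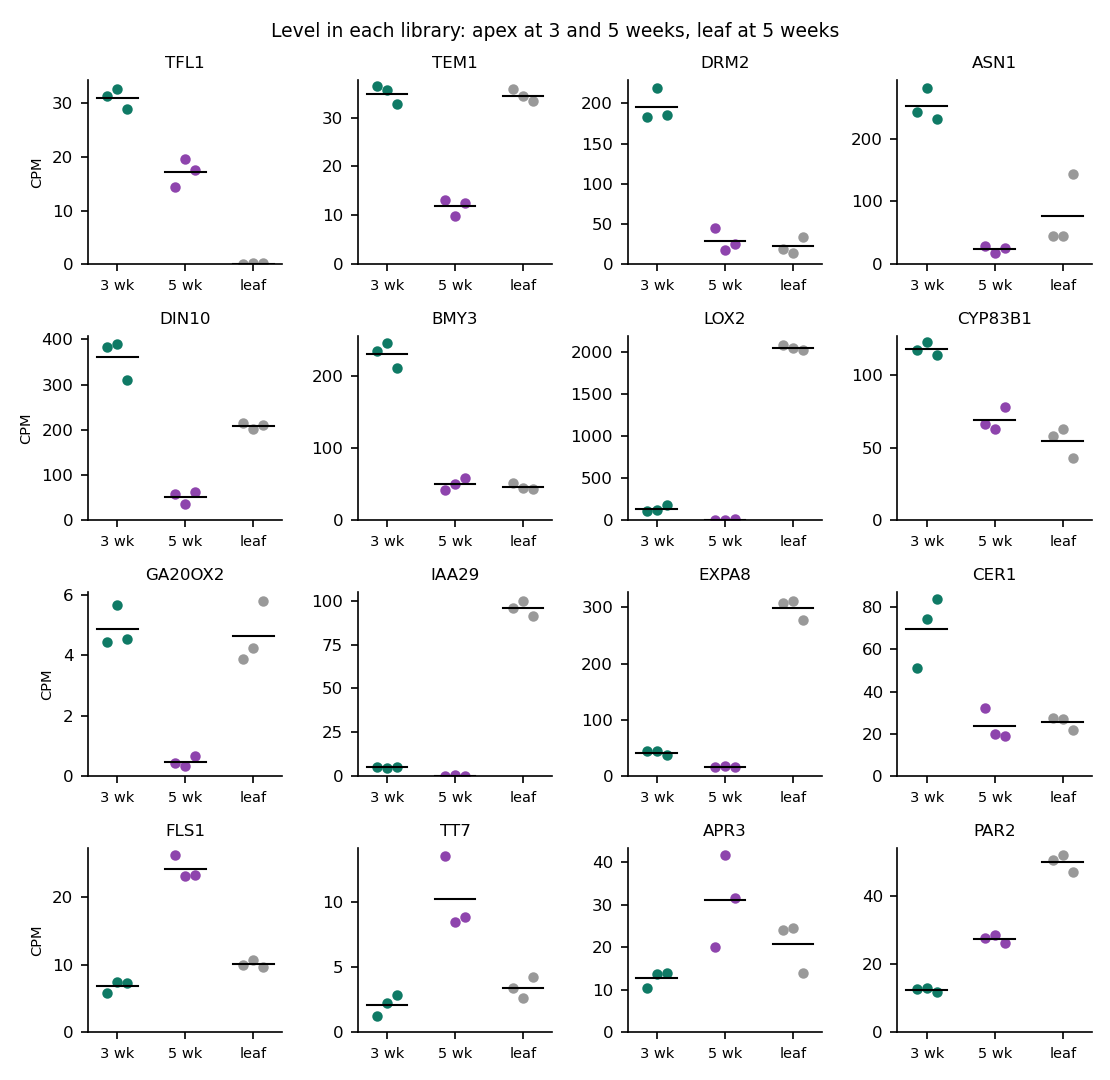
Level in CPM (linear axis from 0, its range set for each gene) of 16 genes in each library of the apex at 3 weeks, the apex at 5 weeks and the leaf at 5 weeks; points are libraries and bars are means of 3. TFL1 falls to about 17 CPM, DRM2, ASN1, DIN10 and BMY3 fall in every 5-week library, and FLS1, TT7, APR3 and PAR2 rise in each.

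Sulphur limitation genes rose together: 6 of 6 tested were higher at 5 weeks, with a median of 1.22. That compares with 19.1% of all entries and 16.1% of named genes tested. The authors had listed 5 of the 6 among genes lower in the mutant at 3 weeks, of which 42 of 75 rose. APR1, APR2 and APR3 encode the reductases of sulphate assimilation. APR3 stood at 10.5, 13.8 and 13.9 CPM at 3 weeks and 20.05, 41.7 and 31.7 CPM at 5 weeks (log2 fold change 1.29, SE 0.22, adjusted p = 3.05e-04), APR1 rose by 1.15 (SE 0.24, adjusted p = 0.00136) and APR2 by 0.71 (SE 0.14, adjusted p = 7.47e-04). The regulators ATSDI1 and LSU2, both induced when sulphur is short, rose by 1.46 (SE 0.26, adjusted p = 3.23e-04) and 1.7 (SE 0.45, adjusted p = 0.00679). SULFUR DEFICIENCY INDUCED 2, a relative of ATSDI1 that was named by its fold, stood at 5.54, 7.22 and 6.45 CPM against 12.8, 33.7 and 25.2 CPM, a rise of 1.90 (SE 0.29, adjusted p = 9.20e-05). In all 6 of these genes the first 5-week library was the lowest of its age and still above every 3-week library. The vacuolar sulphate exporter SULTR4;2 rose least (log2 fold change 0.35, SE 0.13, adjusted p = 0.0462), with 14.1 CPM in the first 5-week library against up to 14.3 CPM at 3 weeks. Its call was lost with RLE scaling in edgeR (adjusted p = 0.0756) and in DESeq2 (adjusted p = 0.168). It was also lost without any 3-week library (adjusted p 0.0696 to 0.168) and without the second (adjusted p = 0.266) or the third (adjusted p = 0.0795) 5-week library.

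In flavonoid metabolism the enzymes TT7 and FLS1 rose and the repressor MYBL2 fell. FLS1, flavonol synthase, stood at 5.74, 7.42 and 7.32 CPM at 3 weeks and at 26.1, 23.1 and 23.3 CPM at 5 weeks, a rise of 1.82 (SE 0.12, adjusted p = 1.69e-08) to a level above the leaf mean of 10.1 CPM. TT7, the flavonoid 3'-hydroxylase, stood at 1.24, 2.25 and 2.86 CPM against 13.5, 8.47 and 8.85 CPM (log2 fold change 2.28, SE 0.26, adjusted p = 6.24e-06). MYBL2, which represses anthocyanin synthesis, fell from 2.81 to 3.72 CPM at 3 weeks to 0.580 to 1.25 CPM at 5 weeks (log2 fold change -1.95, SE 0.29, adjusted p = 8.26e-05). Neither age overlapped the other in any of the 3. The authors listed TT7 and FLS1 among genes lower in the mutant at 3 weeks, and MYBL2 only for the leaf.

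Of 6 photosynthesis and photorespiration genes 5 fell (83.3%) and none rose, with a median of -2.04. Among all named genes tested 38.7% fell. Several were leaf genes at a trace level in the apex. CA1, the main carbonic anhydrase of leaf chloroplasts, had 32.4, 4.90 and 13.6 CPM at 3 weeks and 0.322, 0.334 and 0.991 CPM at 5 weeks, against a mean of 8681 CPM in leaf. It fell by 4.93 (SE 0.67, adjusted p = 3.28e-05). That fall was 4.06 without the first 3-week library and 5.66 without the third 5-week library. CAT2, the peroxisomal catalase of photorespiration, had 2.74, 0.136 and 0.200 CPM at 3 weeks and 0 counts in all 5-week libraries, so it was at least 15.9-fold lower against a limit of 3 counts over the group. Of its counts at 3 weeks 42 were in the first library, and the others had 2 and 3. Without that first library the same limit gave only at least 2.56-fold lower. Both genes, and CA2 as well, were highest in the first 3-week library, and the authors listed these 3 as higher in the mutant at the 3-week apex. For GLDP2, a subunit of glycine decarboxylase, and PORA, a chlorophyll synthesis enzyme, which were not so listed, the falls were 0.78 (SE 0.07) and 0.76 (SE 0.12) and no library stood out. LHCB2.1, an antenna protein, had 189 to 268 CPM at 3 weeks and 136, 423 and 322 CPM at 5 weeks, and did not pass (adjusted p = 0.31), but without the first 5-week library it was higher at 5 weeks (log2 fold change 0.69, adjusted p = 2.65e-04).

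The share of the leaf level that the apex reached differed between genes. Over 141 genes with at least 1000 CPM in leaf, the lowest share of the leaf level was taken in each library separately. It was 0.299% in the first 3-week library, and 0.00779%, 0, 0, 0.00382% and 0.0113% in the other 5 libraries in order. The gene with the lowest share can differ between libraries. The median share over the 141 genes was 8.42% to 9.38% at 3 weeks and 5.52% to 6.78% at 5 weeks. LOX2, the chloroplast lipoxygenase at the head of jasmonate synthesis, stood at 5.16% to 8.97% of its leaf level at 3 weeks and at 0.0649% to 0.479% at 5 weeks, and that of GASA6 fell from 1.34% to 2.05% at 3 weeks to 0.0203% to 0.218% at 5 weeks.

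The leaf level of the entries that fell and of those that rose was also set side by side. The 3 leaf libraries lay above all 6 apex libraries in 33.5% of all entries, in 54.4% of those that fell and in 13.0% of those that rose. They lay below all apex libraries in 35.6% of all entries, in 21.2% of those that fell and in 50.6% of those that rose. Among entries changed at least 2-fold, the leaf was above in 50.9% of the fallen and 12.8% of the risen. These shares are descriptions of entries from the same 9 libraries, with no test.

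**Figure D4:**
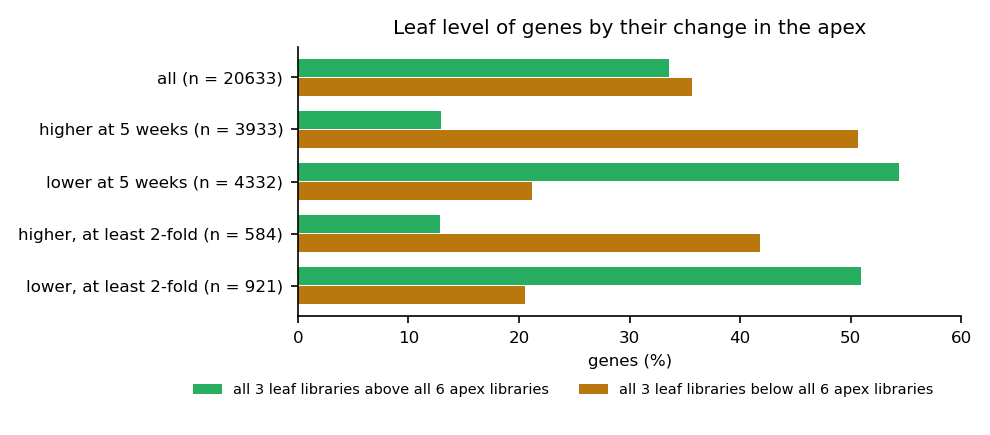
Percent of gene entries (horizontal, from 0) for which all 3 leaf libraries lay above (green) or below (brown) all 6 apex libraries, for all entries and for entries grouped by their change in the apex. The green bar is 54.4% for the entries lower at 5 weeks and 13.0% for those higher.

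In jasmonate metabolism 4 of 9 tested genes fell (44.4%) and none rose, against 38.7% lower and 16.1% higher among all named genes tested, so the share that fell was near that background. The authors listed 2 of the 9 as higher at the 3-week apex. LOX2 had 106, 116 and 184 CPM at 3 weeks and 3.35, 1.33 and 9.84 CPM at 5 weeks, a fall by 4.80 (SE 0.35, adjusted p = 7.61e-08) with a wide gap between the ages. The third library was the highest at both ages, and without the 5-week one the fall was 5.84. AOS, the next enzyme of the path, and OPCL1, which activates its later intermediates, fell by 1.24 (SE 0.21, adjusted p = 2.70e-04) and 1.1 (SE 0.15, adjusted p = 3.69e-05), and AOC3, an allene oxide cyclase, by 0.43 (SE 0.09, adjusted p = 8.53e-04). JAZ1, a repressor of the response that jasmonate itself induces, had 49.2 to 52.7 CPM at 3 weeks and 27.9, 35.2 and 55.5 CPM at 5 weeks (adjusted p = 0.13, or 0.00176 for a log2 fold change of -0.68 without the third 5-week library). The pair of 2-oxoglutarate oxygenases AT2G38240 and AT5G05600, whose Arabidopsis counterparts hydroxylate jasmonate, were among the largest falls. AT2G38240 had 9.72, 13.8 and 8.78 CPM against 0.129, 0 and 0.264 CPM (log2 fold change -6.26, SE 0.50, adjusted p = 1.57e-07, or -7.16 without the third 5-week library). AT5G05600 fell from 2.06 to 2.54 CPM to 0.134 CPM or less (log2 fold change -4.53, SE 0.51, adjusted p = 5.45e-06).

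Of 12 glucosinolate genes 7 fell (58.3%) and none rose (median -0.90, 4 listed as higher at the 3-week apex). Among all named genes tested 38.7% fell and 16.1% rose. TGG2, a myrosinase, stood at 31.0, 20.0 and 24.4 CPM against 3.48, 2.00 and 3.77 CPM (log2 fold change -3.02, SE 0.19, adjusted p = 1.83e-08), and NSP1, a nitrile-specifier protein, at 9.72, 9.53 and 12.2 CPM against 1.68, 1.60 and 2.44 CPM (log2 fold change -2.45, SE 0.20, adjusted p = 2.36e-07). CYP83B1, which acts early in indolic glucosinolate synthesis, fell by 0.77 (SE 0.11, adjusted p = 3.79e-05), and MYB29, an activator of the aliphatic branch, by 1.38 (SE 0.23, adjusted p = 2.21e-04). In none of these 4 did the ages overlap. The aliphatic enzyme genes were different: CYP79F1 had 7.37, 1.23 and 1.53 CPM at 3 weeks and 0.580, 1.27 and 0.396 CPM at 5 weeks, and its call (adjusted p = 0.0117) was lost without the first 3-week library (log2 fold change -0.88, adjusted p = 0.0849). Its log2 fold change of -2.18 became -2.78 without the second 5-week library, and its adjusted p was 0.050 without the third. BCAT4 and IPMI2, of the same branch, were also highest in that first library and did not pass (adjusted p = 0.0595 and 0.87). BCAT4 passed without the second or the third 3-week library (adjusted p = 0.0180 and 0.0215). Without it and the first 5-week library IPMI2 was higher at 5 weeks (log2 fold change 0.89, adjusted p = 6.14e-05). CYP79C2, a P450 of the family that starts such pathways, stood at 44.0, 20.7 and 20.9 CPM against 0.322, 1.47 and 0.925 CPM (log2 fold change -4.98, SE 0.37, adjusted p = 7.78e-08).

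Immune signalling genes were counted separately. Of 9 salicylic acid and defence genes tested 1 rose (11.1%) and none fell, against 16.1% higher and 38.7% lower among all named genes tested. That 1 was FLS2, the receptor for bacterial flagellin, which stood at 11.9, 11.7 and 8.98 CPM at 3 weeks and at 36.7, 23.9 and 30.7 CPM at 5 weeks (log2 fold change 1.48, SE 0.15, adjusted p = 1.62e-06), above the leaf mean of 12.0 CPM. Of 6 WRKY factors WRKY46, WRKY54 and WRKY18 rose, by 1.59 (SE 0.39, adjusted p = 0.00425), 0.80 (SE 0.20, adjusted p = 0.00499) and 0.84 (SE 0.23, adjusted p = 0.00824), and WRKY40 fell by 1.44 (SE 0.23, adjusted p = 1.61e-04). Of the 6 factors 50% rose and 16.7% fell, against 16.1% and 38.7% of all named genes tested. Only WRKY40 of the 6 was listed for the 3-week apex, as higher in the mutant. WRKY40 stood at 20.4, 16 and 16.6 CPM against 6.25, 3.74 and 9.58 CPM. WRKY18 was no longer called without the third 5-week library (log2 fold change 0.45, adjusted p = 0.0594), which held its highest level, 18.1 CPM against 8.45 and 10.3 CPM in the other 5-week libraries.

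Hormone genes changed in both directions. Of 8 gibberellin genes 5 fell (62.5%) and 1 rose (12.5%), against 38.7% lower and 16.1% higher among all named genes tested. Only 1 of the 8 (GA2OX2) was listed for the 3-week apex. GA20OX2, which makes active gibberellin precursors, stood at 4.44, 5.65 and 4.52 CPM against 0.451, 0.334 and 0.661 CPM, a fall by 3.31 (SE 0.29, adjusted p = 5.30e-07) with no overlap. GA2OX2, which inactivates gibberellin, fell as well, by 1.22 (SE 0.16, adjusted p = 2.14e-05), from 15.8 to 17.5 CPM at 3 weeks to 5.74 to 8.92 CPM at 5 weeks. GASA6, a gibberellin-responsive peptide gene, fell from 6.65, 4.36 and 5.72 CPM to 0.709, 0.0667 and 0.0661 CPM (log2 fold change -4.25, SE 0.39, adjusted p = 7.21e-07, or -6.2 without the first 5-week library), while its relative GASA4 rose by 0.37 (SE 0.08, adjusted p = 0.00243), from 592 to 629 CPM at 3 weeks to 703 to 841 CPM at 5 weeks. The DELLA repressor RGL3 fell by 0.38 (SE 0.09, adjusted p = 0.00388).

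Of 11 auxin genes 4 fell (36.4%) and 3 rose (27.3%), with 2 listed as higher and 2 as lower at the 3-week apex. The share that fell was near the 38.7% among all named genes tested, of which 16.1% rose. The response genes IAA29, IAA1 and IAA19 fell by 3.66 (SE 0.27, adjusted p = 7.07e-08), 1.62 (SE 0.16, adjusted p = 1.52e-06) and 0.58 (SE 0.10, adjusted p = 4.39e-04). IAA29 stood at 5.48, 4.77 and 5.05 CPM against 0.322, 0.734 and 0.132 CPM, with 95.8 CPM in leaf, and its fall was 4.43 without the second 5-week library. ARF1, an auxin response factor, and PILS5, an auxin carrier of the endoplasmic reticulum, rose by 0.50 (SE 0.09, adjusted p = 2.98e-04) and 0.77 (SE 0.13, adjusted p = 2.82e-04), and PILS5 was below both ages in leaf at 3.63 CPM. YUC6, an auxin synthesis enzyme, rose by 1.23 (SE 0.31, adjusted p = 0.00515), from 1.3 to 2.72 CPM at 3 weeks to 3.57 to 6.19 CPM at 5 weeks. ILL5, of the auxin conjugate hydrolases, was among the largest falls, from 2.87, 3.88 and 4.26 CPM to 0.0645, 0 and 0.859 CPM (log2 fold change -3.54, SE 0.53, adjusted p = 7.76e-05, or -6.43 without the third 5-week library).

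Among other hormone genes, ARR15, a cytokinin-induced response regulator, rose from 7.78 to 11.3 CPM at 3 weeks to 16.9 to 28.0 CPM at 5 weeks (log2 fold change 1.21, SE 0.17, adjusted p = 3.62e-05). The ethylene receptors ERS1 and ERS2 fell by 0.64 (SE 0.09, adjusted p = 5.89e-05) and 0.62 (SE 0.08, adjusted p = 2.08e-05), and ACS8, an ethylene synthesis enzyme, from 0.798 to 0.979 CPM to 0.264 CPM or less (log2 fold change -2.71, SE 0.49, adjusted p = 4.34e-04, or -3.61 without the third 5-week library). Of 14 brassinosteroid and ethylene genes 6 fell (42.9%) and 2 rose (14.3%), near the 38.7% lower and 16.1% higher among all named genes tested. Of these 14, 2 were listed as higher, ERS1 among them, and 3 as lower at the 3-week apex. Of 3 cytokinin genes 1 fell and 1 rose. Of 10 abscisic acid and dehydration genes 4 fell and 2 rose, which is also near the background of all named genes. Of these 10, LEA14 and NAC019 were listed as higher and PYL6 as lower at the 3-week apex. The dehydration genes LEA14 and NAC019 fell by 4.61 (SE 0.77, adjusted p = 2.2e-04) and 3.83 (SE 0.59, adjusted p = 1.14e-04), and CYP707A3, which breaks down abscisic acid, by 1.85 (SE 0.36, adjusted p = 7.92e-04), or by 2.6 without the third 5-week library. The abscisic acid receptors PYL4 and PYL6 rose by 0.45 (SE 0.11, adjusted p = 0.00346) and 0.67 (SE 0.14, adjusted p = 0.00123).

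Cell wall and surface genes made up another set of falls, and few of them were listed for the apex. Of 15 cell wall genes 11 fell and 3 rose, with a median of -0.80. All but 1 of the 15 were listed only for the leaf, where 29.1% of such genes fell. The expansins EXPA8, EXPA10 and EXPA11, which loosen walls in growing cells, fell by 1.3 (SE 0.08, adjusted p = 2.00e-08), 1.31 (SE 0.10, adjusted p = 1.59e-07) and 2.42 (SE 0.26, adjusted p = 3.25e-06). EXPA8 stood at 44.2, 44.2 and 38.3 CPM against 17.08, 17.55 and 16.65 CPM, far apart, with 299 CPM in leaf. XTH30, XTH24 and XTH33, which cut and rejoin xyloglucan, fell by 1.85 (SE 0.19), 1.76 (SE 0.29) and 1.47 (SE 0.32). EXPA20 and EXPB1 rose by 0.52 (SE 0.08, adjusted p = 9.64e-05) and 0.49 (SE 0.14, adjusted p = 0.00945). EXPA20 was low in leaf (3.21 CPM against 44.7 to 50.0 CPM at the 5-week apex). The call of EXPB1 was lost without the second 5-week library (log2 fold change 0.35, adjusted p = 0.0546). Leaving out single libraries left 8 to 10 of the 11 falls.

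Of 10 epidermis, cuticle and stomata genes 8 fell (80%) and none rose (median -0.95, 1 listed for the 3-week apex). All but 1 of the 10 were listed only for the leaf, where 29.1% of such genes fell. Most of them were listed as higher in the mutant leaf, and 36.3% of IDs listed only in that way fell. Among all named genes tested 38.7% fell. CER1, needed for wax alkanes, stood at 51.1, 74.3 and 83.9 CPM at 3 weeks and at 32.4, 20.08 and 19.3 CPM at 5 weeks (log2 fold change -1.54, SE 0.18, adjusted p = 8.07e-06). KCS19 and KCS8, of the fatty acid elongase family, fell by 1.13 (SE 0.18, adjusted p = 1.20e-04) and 1.00 (SE 0.21, adjusted p = 0.00126), CYP86A8, a fatty acid hydroxylase of cutin, by 0.67 (SE 0.12, adjusted p = 4.78e-04), and TMM, a receptor of the stomatal lineage, by 0.89 (SE 0.21, adjusted p = 0.00305). In DESeq2 KCS19 was not called (log2 fold change -1.18, adjusted p = 0.173), with a fold of about the same size. PDF1, a marker of the outermost cell layer, had 1174, 1325 and 1409 CPM at 3 weeks and 836, 647 and 660 CPM at 5 weeks. Its groups did not overlap, but it did not pass (log2 fold change -0.87, SE 0.39, adjusted p = 0.0846). It passed in a fit of the 6 apex libraries alone (adjusted p = 4.02e-05) and without the first 5-week library (adjusted p = 0.0345), and its leaf levels were 4.64, 2.87 and 39.2 CPM. CER1 and PDF1, whose sum is given above, are members of this group, so that sum is no separate measure of surface cells. The part of such cells in the falls was not tested.

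Clock genes differed between ages and also among the 5-week libraries. Evening genes are expressed late in the day and morning genes around dawn. Of 6 evening genes 5 fell (83.3%) and none rose (4 listed as higher at the 3-week apex). Among all named genes tested 38.7% fell. BOA and PCL1, MYB-type factors of the evening complex or close to it, stood at 15.3, 14.8 and 15.8 CPM against 6.38, 3.80 and 7.4 CPM, and at 37.7, 39.1 and 38.4 CPM against 24.3, 16 and 21.4 CPM. Their falls were 1.38 (SE 0.18, adjusted p = 2.02e-05) and 0.90 (SE 0.12, adjusted p = 2.07e-05). ELF4, FKF1 and TOC1 fell by 1.14 (SE 0.24), 0.83 (SE 0.22) and 0.33 (SE 0.09), and PRR5 did not pass (log2 fold change 0.12, SE 0.11, adjusted p = 0.42). Of 4 genes of clock output 3 fell (75%) and none rose, CCL among them by 0.72 (SE 0.13, adjusted p = 5.02e-04). CCL was the only 1 of the 4 in which the ages did not overlap. In the other genes that fell, the first 5-week library lay within the range of the 3-week libraries. Of these 4, 3 were listed as higher at the 3-week apex.

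Of 6 morning genes PRR9 and LNK4 rose (33.3%) and RVE2 fell (16.7%), against 16.1% higher and 38.7% lower among all named genes tested. PRR9 had 1.5, 0.817 and 0.333 CPM at 3 weeks and 1.23, 6.00 and 5.02 CPM at 5 weeks (log2 fold change 2.19, SE 0.49, adjusted p = 0.00228, or 2.81 without the first 3-week library). LNK4 had 10.2, 7.63 and 7.18 CPM at 3 weeks and 10.4, 44.8 and 31.1 CPM at 5 weeks (log2 fold change 1.78, SE 0.34, adjusted p = 7.58e-04). In both genes the first 5-week library lay beside the 3-week libraries. The core morning genes CCA1 and LHY did not pass (log2 fold change -0.08 and -0.32, adjusted p = 0.89 and 0.46). LHY spread from 5.45 to 22.1 CPM within the 3-week age. Over the 6 morning genes the first 5-week library was the lowest of its age in 6. Over the 10 evening and output genes it was the highest in 8, and the second 5-week library was the lowest in 9. No source used here gives the hour of harvest, so an effect of age on these genes and one of harvest time cannot be told apart. Without the first library of each age, 10 of the 16 clock genes were lower and 3 higher, against 9 and 2 with all libraries.

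**Figure D5:**
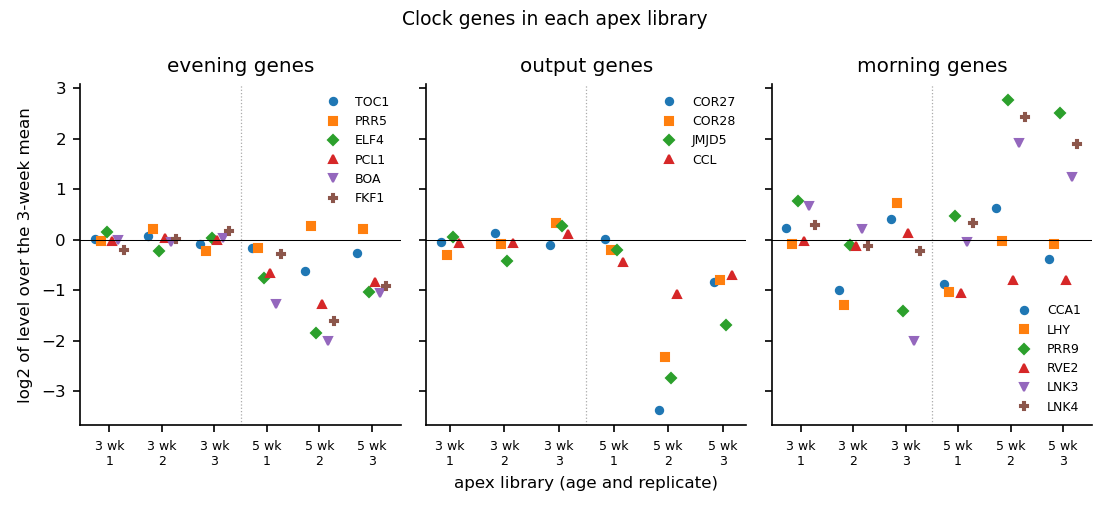
Log2 of the level of 16 clock genes in each apex library over the gene's mean at 3 weeks; each symbol is a gene, and libraries are ordered by age and replicate number. All evening and output genes but PRR5 lie lowest in the second 5-week library, and within the 5-week age the morning genes lie lowest in the first library.

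Among light signalling genes, PIL1 and BBX28 rose with a spread like that of PRR9 and LNK4 within the 5-week age. PIL1, a shade-induced bHLH factor, had 0.261, 0.0681 and 0 CPM at 3 weeks and 0.580, 3.6 and 1.72 CPM at 5 weeks (log2 fold change 4.03, SE 0.94, adjusted p = 0.00299). That change was 5.50 without the first 3-week library and 3.26 without the second 5-week library. BBX28, a B-box regulator of light responses, had 4.3, 4.63 and 2.39 CPM against 4.96, 18.9 and 11.8 CPM (log2 fold change 1.65, SE 0.35, adjusted p = 0.00159). In both the second 5-week library was the highest and the first the lowest of its age. PAR2, which restrains shade responses, did not share this spread: 12.7, 12.9 and 11.9 CPM against 27.5, 28.5 and 26.1 CPM (log2 fold change 1.13, SE 0.08, adjusted p = 7.86e-08). PKS4, a phytochrome kinase substrate of phototropism, fell from 16.9 to 21.3 CPM at 3 weeks to 5.09 to 6.96 CPM at 5 weeks (log2 fold change -1.73, SE 0.16, adjusted p = 7.13e-07). Of 11 light and shade genes 4 rose (36.4%) and 1 fell (9.09%), against 16.1% higher and 38.7% lower among all named genes tested.

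Of 14 iron and copper genes 2 rose (14.3%) and 4 fell (28.6%), with a median of -0.35, against 16.1% higher and 38.7% lower among all named genes tested. Of the 14, 12 were listed only for the leaf, where 29.1% of such genes fell. The ferritins FER1 and FER3, which store iron in plastids, rose by 0.70 (SE 0.10, adjusted p = 4.95e-05) and 0.48 (SE 0.11, adjusted p = 0.00348). VTL2, a vacuolar iron carrier, fell by 1.71 (SE 0.21, adjusted p = 1.35e-05), and BTS, a ubiquitin ligase of the iron response, by 0.41 (SE 0.07, adjusted p = 1.41e-04). VTL2 had 8.02, 5.72 and 6.65 CPM at 3 weeks and 2.64, 1.60 and 1.98 CPM at 5 weeks, and FER1 had 48.1, 59.9 and 52.7 CPM against 83.9, 79.3 and 97.2 CPM. For both genes the ages were apart. Of 4 heat shock and touch genes 2 fell and none rose, beside the same background.

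The named genes with the smallest p-values were not all in these groups. The lowest of all belonged to ACBP3, an acyl-CoA-binding protein, at 47.7, 49.7 and 46.6 CPM against 8.96, 8.34 and 8.85 CPM (log2 fold change -2.46, SE 0.08, adjusted p = 7.97e-11). The replicates lay close together and the ages far apart. THA1, a threonine aldolase, stood at 15.1, 15.7 and 14 CPM against 0.193, 0.534 and 0.727 CPM (log2 fold change -4.92, SE 0.24, adjusted p = 1.22e-09). MIOX2, an inositol oxygenase known to rise in low sugar in Arabidopsis, fell by 2.4 (SE 0.11, adjusted p = 7.31e-10), from 69.2 to 94.4 CPM at 3 weeks to 14.4 to 16.6 CPM at 5 weeks. STY46, a cytosolic kinase, fell by 1.90 (SE 0.09, adjusted p = 1.00e-09), and AT1G30820, a CTP synthase, by 2.04 (SE 0.09, adjusted p = 7.31e-10), from 442 to 487 CPM at 3 weeks to 103 to 126 CPM at 5 weeks. All 5 were listed by the authors as higher in the mutant at the 3-week apex.

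On the rising side the smallest p among named genes belonged to BRG2, a RING finger protein related to BOI, at 8.29, 9.74 and 9.24 CPM against 33.8, 35.4 and 33.4 CPM (log2 fold change 1.91, SE 0.10, adjusted p = 3.43e-09). The tonoplast aquaporin DELTA-TIP rose from 89.2 to 94.2 CPM at 3 weeks to 179 to 204 CPM at 5 weeks (log2 fold change 1.08, SE 0.10, adjusted p = 1.00e-06). UCP5, a dicarboxylate carrier of mitochondria, rose by 0.99 (SE 0.10, adjusted p = 1.15e-06), ADT4, an arogenate dehydratase of phenylalanine synthesis, by 0.71 (SE 0.07, adjusted p = 1.36e-06), and the receptor-like kinase NIK1 by 0.68 (SE 0.06, adjusted p = 9.95e-07). None of these 5 was listed for the 3-week apex, but NIK1 was listed as higher at the 5-week apex. AT5G19100, of the aspartyl protease family, had 2.61, 3.27 and 3.19 CPM against 19.4, 9.34 and 14.1 CPM (log2 fold change 2.24, SE 0.25, adjusted p = 9.92e-06) and 0 counts in the leaf libraries.

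Several of the strongest changes had no name. Aa_G419700 rose from 1.5, 1.98 and 1.66 CPM to 12.2, 12.4 and 13.0 CPM (log2 fold change 2.87, SE 0.15, adjusted p = 3.32e-09), and Aa_G48790 from 7.70, 7.15 and 8.38 CPM to 39.5, 40.2 and 40.4 CPM (log2 fold change 2.37, SE 0.10, adjusted p = 7.31e-10), the latter nearly silent in leaf at 0.258 CPM. Aa_G203760 and Aa_G574220 had 0 counts in all 5-week libraries, at least 14.5-fold and 9.45-fold lower against a limit of 3 counts over the group. Both were already at a trace level at 3 weeks, with means of 0.955 and 0.622 CPM, against 31.0 and 29.1 CPM in leaf. They met the minimum average level for naming only through the leaf libraries. Aa_G203760 was the only one of all entries with no count at 1 age and at least 10 counts in each library of the other.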

How the data were processed

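Polyadenylated RNA was sequenced as single reads of 100 bases, per the labels' protocols. The deposited table gives whole-number read counts per gene for 9 mutant libraries, and the submitters' processing notes name STAR, HTSeq 0.5.4p1, DESeq and DESeq2 with no role or order. The genome build, the strand setting of counting and the treatment of near-identical gene copies are not given in these sources, so members of close families (CA1 and CA2, APR1 to APR3) are uncertain. The authors also deposited 6 lists of genes that differ between mutant and control, each with a fold change (ratio) that served here only to mark direction. Their 6 control-mean columns were left unused. Names came from these lists for 1077 of 30538 counted IDs, of which 975 were tested.

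The counts of 3 groups of 3 libraries went into 1 model in edgeR 4.0.16 (R 4.3.3), with TMM scaling, filterByExpr and quasi-likelihood F-tests, Benjamini-Hochberg adjusted over 20633 entries. The SE is the size of the log2 fold change divided by the root of F. CPM are counts divided by the TMM-scaled library size. The 5 special entries of reads without a gene stayed out and held 14.1% to 19.2% of an apex library's counts. Those with no feature were 10.7% to 11.0% at 3 weeks and 13.9% to 16.3% at 5 weeks, and their part in the results was not tested.

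The members and the 26 gene lists were chosen with earlier results of these data known. List members were matched by symbol, and 1 deposited gene that shares its symbol with a gene meant by a list was left out by its Arabidopsis ID. Families formed from words in the deposited descriptions were not used, because the words also matched other genes. Genes were named by rule: list members, the 15 largest folds and 10 smallest p-values in each direction among paired genes (for the folds, average log2 CPM of at least 2 and no overlap), the 2 unnamed IDs with the largest folds in each direction, and genes with no count at 1 age. The average level included the leaf libraries, so genes at a trace level in the apex could meet the minimum. Alternatives covered scaling, filtering, DESeq2 1.42.0, limma 3.58.1 with voom, a replicate block and leaving out libraries. The fitting code was tested on simulated data.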

Additional observations from a re-analysis of the deposited data

How the results depend on the processing

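Across the scalings, filters, tools, the replicate block and libraries left out, the counts of entries called, higher and lower in all entries stayed within 1.5 times of those reported. One exception was the entries with at least 2-fold change. These dropped from 1505 to 829 when only entries with an average log2 CPM of at least 2 were tested. All entries called dropped less, from 8265 to 7330, so many of the 2-fold changes lay in entries of low average level. The share of called entries that were higher was 47.6% as reported. It was 40.1% with RLE scaling in edgeR, 66.2% with total counts alone, 49.5% with the log2 CPM minimum and 37.3% in DESeq2. Without the first library of each age it was 45.8%. It ranged from 45.9% to 47.2% when 1 apex library was left out, with 6256 to 8513 entries called. The cause was not tested. Same-numbered libraries of the ages did not deviate together (correlations -0.14, -0.02 and -0.03). With 3 libraries per age this cannot exclude that the numbers pair the samples, and the labels do not say. With the replicate block 7681 entries were called, 3652 higher and 4029 lower. With the block on the 6 apex libraries alone, an alternative chosen after seeing the data, 7649 were called.

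Of 137 genes named, 125 were called, and 118 of these kept their call and direction in all 16 alternatives. The calls lost were those of ATL8, CYP79F1, EXPB1, KCS19, SULTR4;2 and WRKY18, given above, and that of YUC6 without the first library of each age (adjusted p = 0.107), a setting also chosen after seeing the data. Signs turned only among genes that had not passed. With total counts alone, the log2 fold change was 0.022 for CCA1 and 0.027 for IPMI2. Without the first library of each age it was 0.32 for CCA1, 0.89 for IPMI2 and 0.32 for BCAT4. Leaving out 1 library gave -0.61 to 0.20 for CCA1, -0.35 to 0.57 for IPMI2, -0.45 to 0.18 for BRC1, -0.69 to 0.24 for LHY and -0.011 to 0.69 for LHCB2.1. At 3 counts the limit per apex library was 0.193 to 0.204 CPM, below which these libraries cannot separate a low gene from an absent one.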
